A study of Homo sapiens with 8 samples.

Results

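The Krüppel-like factor (KLF) genes KLF2, KLF3, KLF4, KLF5, KLF6, KLF7, KLF10, KLF11, KLF12 and KLF13 were followed in breast cancer cells given an androgen. They were taken by symbol, as the probe sets annotated to exactly 1 of these 10 symbols, which gave 35 probe sets of the 54675 on the array and 10 of the 19775 genes measured. The brightest probe set of a gene, by its mean on the 8 arrays, stands for the gene, and the other 25 probe sets are given beside it. For 8 of the 10 genes the mean log2 signal lay above the median of all genes, 8.44, while KLF5 and KLF12 lay below it, and no gene was left out for low signal.

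MDA-MB-453 is an established human breast cancer cell line. The groups were vehicle, and 5α-dihydrotestosterone (DHT), a potent androgen, at 10 nM for 4 h, 16 h and 48 h, with 2 biological replicates each and 1 array per replicate. Before that, cells of all 4 groups were kept for 3 days without phenol red and with 5% serum that charcoal had depleted of steroids. No time is labelled for the vehicle cells, so DHT and time in culture cannot be told apart, and the same 2 vehicle arrays stand behind all 3 comparisons with vehicle. It is a single line, and the labels do not say whether the biological replicates were cultured on different days.

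KLF proteins bind GC-rich and CACCC elements through zinc fingers at their C-terminal end, which they have in common with the SP factors, and differ in the N-terminal part that recruits partners. KLF2, KLF4, KLF5, KLF6 and KLF7 are known to recruit acetyltransferases and can activate genes, KLF3 and KLF12 bind the corepressor CtBP, and KLF10, KLF11 and KLF13 bind the corepressor SIN3A. In epithelia KLF4 is known for promoting differentiation and KLF5 for promoting proliferation, and several members respond within hours to growth factors and hormones.

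All 8 arrays had median log2 signals between 7.59 and 7.63, and replicates correlated across genes at r = 0.995 to 0.997, with genes not being independent replicates. DHT 16 h replicate 2 stood apart. Its 3′ minus 5′ difference for the ACTB control probe sets was 1.52 log2 units, against 0.20 to 0.94 on the other 7 arrays, and it lay at -23.1 on the second principal component (16.1% of the variance), against -0.5 to 10.8. Its part in the results was not tested beyond leaving it out. Of the luminal markers FOXA1, GATA3, SPDEF, KRT8, KRT18, KRT19, XBP1 and ERBB2, all 8 had mean log2 signals between 12.08 and 14.18, above the median of all genes, and PGR had 7.41 and ESR1 8.47. The luminal sum was 105.8 to 106.2 at 4 h, 106.8 to 107.6 at 16 h and 105.9 on both arrays at 48 h, against 107.2 to 107.8 in vehicle cells. Of the 8, 0 were called at 4 h (limma, 2 at an unadjusted p below 0.05), 2 rose and 1 fell at 16 h, and 1 rose and 3 fell at 48 h. At 48 h KRT19 rose (log2 change 0.68) and FOXA1 (-0.72), GATA3 (-0.85) and ERBB2 (-0.65) fell, calls kept without each array in turn. At 16 h KRT19 (0.58) and SPDEF (0.41) rose and ERBB2 (-0.47) fell. The call of SPDEF was lost without any array but DHT 16 h replicate 1, and that of ERBB2 without either vehicle array. The summed log2 signal of 4 endothelial markers was 27.7 to 28.2 at 16 h and 28 to 28.2 at 48 h, against 27.9 to 28 in vehicle cells, with 0 of 4 called at any time (limma, 0 also at an unadjusted p below 0.05). Of 3 basal markers, ACTA2 fell at 16 h and 48 h and KRT5 rose at 48 h, and the sum over the 3 was 22.1 on both arrays at 16 h and 22.9 to 23.1 at 48 h, against 22.6 to 23.2 in vehicle cells. Both basal calls at 48 h were lost without DHT 48 h replicate 1, and that of KRT5 also without vehicle replicate 1. The part of the luminal and basal markers in the KLF results was not tested, and in RNA from whole cultures fewer cells of a type and less RNA per cell cannot be told apart.

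Under DHT the family changed in both directions. At 16 h KLF4, KLF10 and KLF11 rose and KLF2, KLF3 and KLF6 fell, and at 48 h KLF4 was still higher and KLF2, KLF3 and KLF6 still lower than in vehicle cells. The 6 genes called at 16 h are 6 of 10, where 6.85% of all genes were called, 2.55% higher and 4.30% lower. At 48 h 4 of 10 were called, 1 higher and 3 lower, where 9.51% of all genes were called, 3.13% higher and 6.38% lower. At 4 h limma called 0 of 10, where 0.177% of all genes were called, and 3 had an unadjusted p below 0.05. A gene was called at a Benjamini-Hochberg adjusted p below 0.05 over all genes, in limma's moderated test on 2 arrays against 2 with the spread taken from all 8 arrays. The F test, which takes the 3 DHT times at once, called the same 6 genes as the test at 16 h, 6 of 10 where 8.90% of all genes were called. Because the genes lay on both sides of 0, their median log2 change was small, 0.14 at 16 h and 0.05 at 48 h, beside 0.024 and 0.012 over all genes. Their median absolute log2 change was 0.57 at 16 h and 0.30 at 48 h, beside 0.11 and 0.12 over all genes. Leaving out vehicle replicate 1 lowered the count at 16 h and that of the F test to 3 each, and leaving out DHT 48 h replicate 1 lowered the count at 48 h to 2. The genes concerned are named below. The 10 genes and the lists below were chosen with earlier results of these data known. Their counts beside the share of all genes are therefore no test of the family or of the lists.

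**Figure D1:**
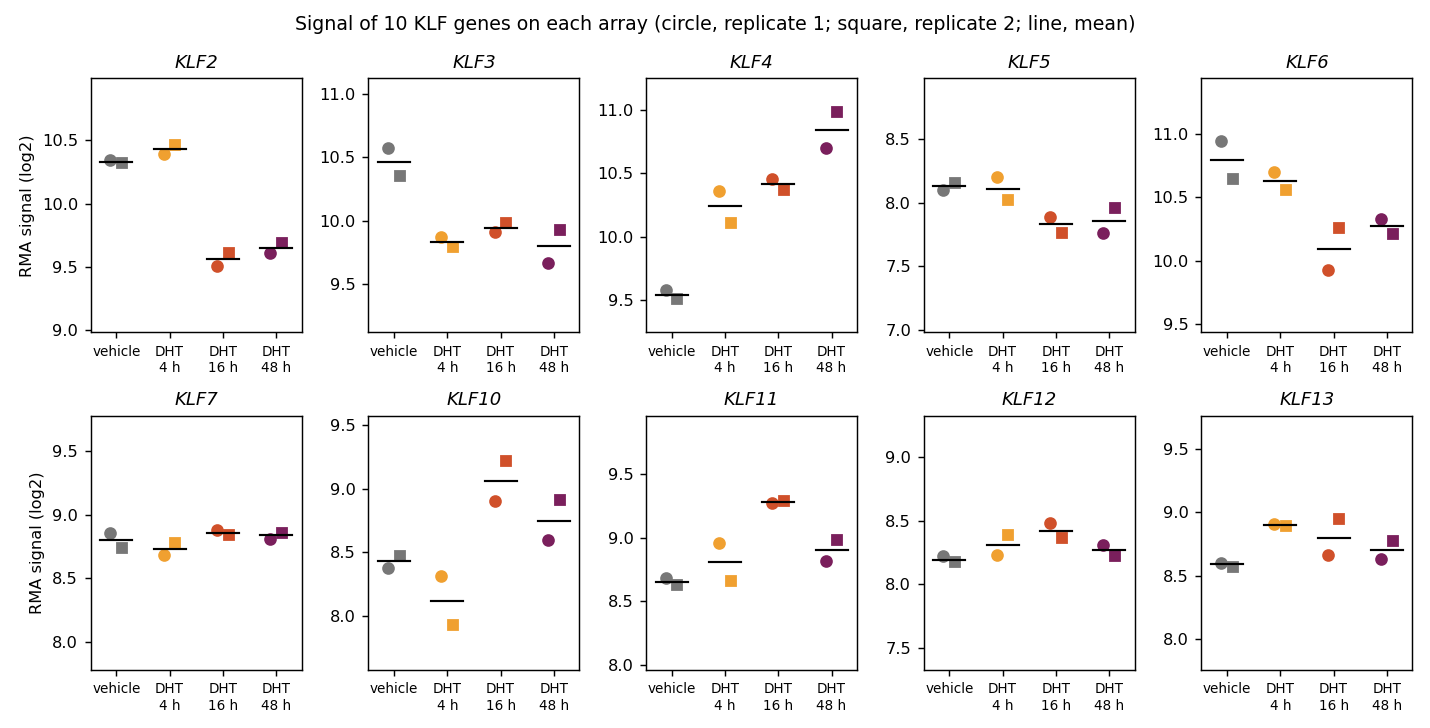
RMA log2 signal (vertical axes, each spanning 2 log2 units) of the 10 KLF genes on every array, with groups along the horizontal axis, circles for replicate 1, squares for replicate 2 and a line at the mean. KLF4 stands higher at every DHT time than in vehicle cells, KLF2 drops between 4 h and 16 h, KLF3 is already low at 4 h, and KLF11 peaks at 16 h with 9.27 and 9.29.

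The classes named above were formed among the 10 genes only. Among the 5 acetyltransferase-recruiting factors, 1 rose, 2 fell and 2 were not called, at 16 h and again at 48 h. Of all genes 2.55% rose and 4.30% fell at 16 h, and 3.13% rose and 6.38% fell at 48 h. KLF4 had log2 signals of 9.58 and 9.51 in vehicle cells, 10.36 and 10.11 at 4 h, 10.45 and 10.37 at 16 h, and 10.70 and 10.98 at 48 h. All 6 DHT arrays stood above both vehicle arrays, and the 48 h arrays above the rest. KLF4 rose 1.82-fold at 16 h, a log2 change of 0.86 ± 0.12 (SE, n = 2, limma adjusted p = 0.00126), and 2.45-fold at 48 h, a log2 change of 1.29 ± 0.12 (adjusted p = 3.76e-05). At 4 h it was 1.62-fold higher, a log2 change of 0.69 ± 0.12, with no call (adjusted p = 0.0542). Its calls at 16 h and 48 h were kept without each of the 8 arrays in turn, with an adjusted p of at most 0.0140 and 0.00101. At 4 h it was called without either 16 h array (adjusted p = 0.0474 for each).

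KLF2, which keeps endothelial cells and lymphocytes quiescent, moved the other way and later. Its log2 signals were 10.34 and 10.32 in vehicle cells, 10.39 and 10.46 at 4 h, 9.51 and 9.61 at 16 h, and 9.61 and 9.69 at 48 h. Replicates lay close together in every group, the 4 h arrays were slightly above vehicle, and the later arrays were all below. KLF2 fell 1.70-fold at 16 h, a log2 change of -0.77 ± 0.09 (limma adjusted p = 0.000446), and 1.61-fold at 48 h, a log2 change of -0.68 ± 0.09 (adjusted p = 0.000607), and at 4 h its log2 change was 0.09 (95% interval -0.10 to 0.29). Both calls were kept without each array in turn, with an adjusted p of at most 0.00717 at 16 h and 0.0121 at 48 h.

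KLF6, a widely expressed factor studied as a growth suppressor, had log2 signals of 10.94 and 10.64 in vehicle cells, 10.70 and 10.56 at 4 h, 9.93 and 10.26 at 16 h, and 10.33 and 10.21 at 48 h. The 4 h and vehicle arrays overlapped, and all 4 later arrays lay below them. KLF6 fell 1.62-fold at 16 h, a log2 change of -0.70 ± 0.13 (limma adjusted p = 0.00906), and 1.43-fold at 48 h, a log2 change of -0.52 ± 0.13 (adjusted p = 0.0318). Vehicle replicate 1 was its highest array, and without it the log2 change was -0.54 at 16 h (adjusted p = 0.106) and -0.37 at 48 h (adjusted p = 0.273). The call at 48 h was also lost without either 4 h array (adjusted p = 0.0507 for each), without DHT 48 h replicate 1 (0.115) and without DHT 48 h replicate 2 (0.165). Quantile normalisation ended it too (0.0517).

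KLF5 and KLF7 were not called at any time. KLF5 had 8.10 and 8.16 in vehicle cells, 8.20 and 8.02 at 4 h, 7.89 and 7.76 at 16 h, and 7.76 and 7.96 at 48 h. Both later groups lay below vehicle without overlap, by log2 changes of -0.30 (95% interval -0.54 to -0.07, limma adjusted p = 0.129) and -0.27 (95% interval -0.50 to -0.03, adjusted p = 0.165). KLF7, best known from neurons, stayed between 8.68 and 8.88 on all 8 arrays. Its groups overlapped with vehicle at each time, and the 95% interval of its log2 change was -0.28 to 0.13 at 4 h, -0.14 to 0.26 at 16 h and -0.17 to 0.24 at 48 h.

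The promoters of KLF2, KLF4 and KLF6 are shown because these genes were called at both later times, in opposite directions, and because each has 1 start in the RefSeq promoter table (GRCh38.p14). The 250 bases before the start are printed 5′ to 3′ along the gene, from chr19:16324576-16324825 on the plus strand for KLF2, chr9:107489770-107490019 on the minus strand for KLF4 and chr10:3785210-3785459 on the minus strand for KLF6. Capitals mark the GC box GGGCGG on either strand and, in KLF2, a match to the palindromic core of the sites bound by MEF2 factors, searched as CTA and TAG with any 4 bases between them.
KLF2: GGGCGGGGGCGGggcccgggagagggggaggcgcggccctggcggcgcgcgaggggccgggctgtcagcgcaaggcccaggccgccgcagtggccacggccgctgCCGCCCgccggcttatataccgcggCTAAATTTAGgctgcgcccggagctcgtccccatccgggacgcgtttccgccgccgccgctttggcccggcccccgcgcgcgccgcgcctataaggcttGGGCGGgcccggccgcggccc
KLF4: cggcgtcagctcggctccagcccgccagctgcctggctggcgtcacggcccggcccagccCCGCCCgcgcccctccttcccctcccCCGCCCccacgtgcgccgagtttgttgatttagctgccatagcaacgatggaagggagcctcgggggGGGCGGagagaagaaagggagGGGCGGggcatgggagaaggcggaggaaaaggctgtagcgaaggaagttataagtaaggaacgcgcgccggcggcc
KLF6: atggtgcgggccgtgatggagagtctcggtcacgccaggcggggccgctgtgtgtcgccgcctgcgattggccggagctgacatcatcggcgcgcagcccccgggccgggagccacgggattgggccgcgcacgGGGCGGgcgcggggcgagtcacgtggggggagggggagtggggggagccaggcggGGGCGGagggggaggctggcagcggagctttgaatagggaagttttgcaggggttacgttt

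All 3 stretches are GC-rich, with 80%, 69.2% and 72.4% G or C for KLF2, KLF4 and KLF6. GC boxes, a class of element that KLF and SP proteins bind, numbered 4 in KLF2, 4 in KLF4 and 2 in KLF6, with overlapping matches counted, and 42.6% of the 35116 promoter stretches of this length in the table held at least 1. The match in KLF2 reads CTAAATTTAG, with 110 bases between it and the start, and 2.36% of all stretches held such a match. The search took any 4 middle bases, so this share counts a loose pattern, and a match is not shown to be a MEF2 site. The loose pattern was also in 1 stretch of KLF11 (CTAGCGGTAG) and 1 of KLF12 (CTACATTTAG). Their middle bases, GCGG and CATT, were not all A or T, while those of KLF2, AATT, were. The CACCC element (CACCC, either strand) was in none of the 3 stretches, and 54.7% of all stretches held it. Stretches of KLF5, KLF7, KLF11, KLF12 and KLF13 held it. The androgen response half-site (AGAACA, either strand) was in none of the 3, and 12.4% of all stretches held it. Of the other members, 1 stretch each of KLF5, KLF7 and KLF12 held it. These counts say only which letters lie in these windows. In all, 8 of the 10 genes had entries in the table, with KLF3 and KLF10 not among them.

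Of the 2 CtBP-binding repressors among the 10 genes, KLF3 fell and KLF12 was not called, where 4.30% of all genes fell at 16 h and 6.38% at 48 h. KLF3 had log2 signals of 10.57 and 10.35 in vehicle cells, 9.87 and 9.79 at 4 h, 9.91 and 9.98 at 16 h, and 9.67 and 9.93 at 48 h. The 6 DHT arrays all lay below both vehicle arrays, at much the same level at each time. At 4 h the log2 change was -0.63 ± 0.11, with no call (limma adjusted p = 0.0639). KLF3 fell 1.43-fold at 16 h, a log2 change of -0.52 ± 0.11 (adjusted p = 0.0185), and 1.59-fold at 48 h, a log2 change of -0.67 ± 0.11 (adjusted p = 0.00336). The call at 16 h ended when vehicle replicate 1 was left out (adjusted p = 0.180) or DHT 16 h replicate 1 was (0.0621), and the call at 48 h without DHT 48 h replicate 1 (0.0503). KLF12, known as a repressor of the AP-2alpha gene TFAP2A, stayed between 8.17 and 8.48, with log2 changes of 0.12, 0.23 and 0.07 at 4 h, 16 h and 48 h (adjusted p = 0.820, 0.220 and 0.719).

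The SIN3A-binding factors KLF10 and KLF11 are also known as early genes of TGF-beta signalling, and both rose at 16 h, while KLF13 was not called. KLF10 had log2 signals of 8.38 and 8.47 in vehicle cells, 8.31 and 7.93 at 4 h, 8.90 and 9.22 at 16 h, and 8.60 and 8.91 at 48 h. Its 4 h arrays lay below vehicle and its later arrays above, without overlap. KLF10 rose 1.55-fold at 16 h, a log2 change of 0.64 ± 0.15 (limma adjusted p = 0.0281). Its log2 change was -0.31 ± 0.15 at 4 h (adjusted p = 0.690) and 0.33 ± 0.15 at 48 h (adjusted p = 0.239). The call at 16 h ended when vehicle replicate 1 (adjusted p = 0.181) or vehicle replicate 2 (0.0781) was left out, and when DHT 16 h replicate 2 was (0.171), with a log2 change of 0.48 in that last case.

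KLF11 had log2 signals of 8.68 and 8.63 in vehicle cells, 8.96 and 8.66 at 4 h, 9.27 and 9.29 at 16 h, and 8.82 and 8.98 at 48 h. The 16 h arrays stood above all 6 others. KLF11 rose 1.54-fold at 16 h, a log2 change of 0.63 ± 0.11 (limma adjusted p = 0.00652), a call kept without each array in turn (adjusted p at most 0.0443). Its log2 change was 0.16 ± 0.11 at 4 h (adjusted p = 0.787) and 0.25 ± 0.11 at 48 h (adjusted p = 0.232). KLF13, known as an activator of the chemokine gene CCL5 in T cells, had 8.60 and 8.57 in vehicle cells, 8.91 and 8.89 at 4 h, 8.66 and 8.95 at 16 h, and 8.63 and 8.77 at 48 h. All 6 DHT arrays stood above both vehicle arrays, by mean log2 changes of 0.31, 0.22 and 0.11, with no call (adjusted p = 0.499, 0.303 and 0.609).

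**Figure D2:**
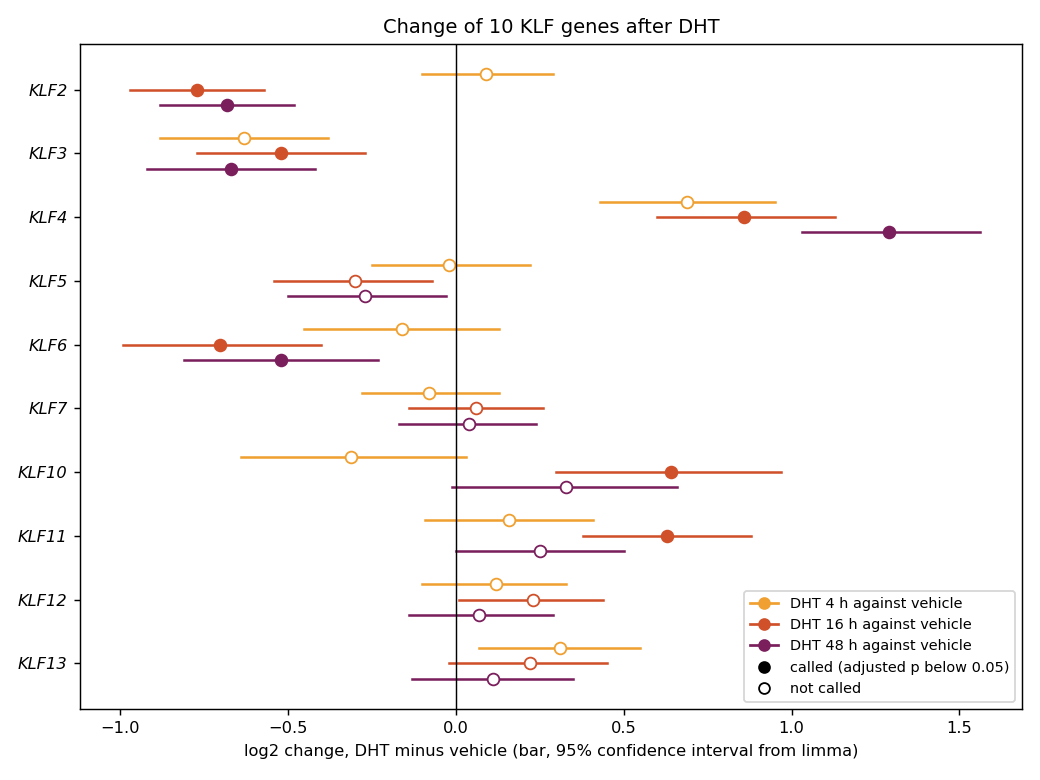
Log2 change of each KLF gene at 4 h, 16 h and 48 h of DHT, DHT minus vehicle, on the horizontal axis, with 95% confidence intervals from limma as bars. Filled points are called and open points are not. KLF4 lies at 0.69, 0.86 and 1.29 for 4 h, 16 h and 48 h, KLF2 at 0.09, -0.77 and -0.68, and KLF10 at -0.31, 0.64 and 0.33.

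To follow the timing within each gene, the DHT groups were compared with each other. From 4 h to 16 h 2 of 10 genes were called, where 3.05% of all genes were. KLF2 was lower at 16 h than at 4 h by a log2 change of -0.86 ± 0.09 (limma adjusted p = 0.000341) and KLF10 higher by 0.94 ± 0.15 (adjusted p = 0.00642). Between 48 h and 4 h 3 of 10 were called, where 6.13% of all genes were. KLF2 was lower at 48 h (-0.78 ± 0.09, adjusted p = 0.000341), and KLF4 (0.60 ± 0.12, adjusted p = 0.0107) and KLF10 (0.63 ± 0.15, adjusted p = 0.0307) were higher. Between 48 h and 16 h limma called 0 of 10, where 0.829% of all genes were, and 2 had an unadjusted p below 0.05. These were KLF4, with a log2 change of 0.43 (95% interval 0.17 to 0.69), and KLF11, with -0.38 (95% interval -0.63 to -0.13). For KLF3 the log2 change between 48 h and 4 h was -0.03 (95% interval -0.28 to 0.22). Without DHT 4 h replicate 2, KLF10's lowest array, KLF10 lost its call between 16 h and 4 h (adjusted p = 0.0818), which left 1 gene. Without DHT 16 h replicate 2, KLF6 was called lower at 16 h than at 4 h (-0.70, adjusted p = 0.0294), which made 3 genes. Without that DHT 4 h array or DHT 48 h replicate 2, both KLF4 and KLF10 lost theirs between 48 h and 4 h, which left 1 gene in each case. KLF10 also lost it without DHT 48 h replicate 1.

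Probe sets of a gene read different stretches of its transcripts and can differ. For the genes called at 16 h there were 10 other probe sets, all 10 with a log2 change of the same sign and 1 of them called. At 48 h there were 9, all 9 of the same sign and 3 called. Over all probe sets of that fit 2.51% were called at 16 h and 3.97% at 48 h. The probe sets of a gene were read on the same arrays, so a shared sign is not independent support. How often signs were shared over all called genes was not counted. Some of these changes were smaller than their SE, such as -0.09 ± 0.13 for the other KLF2 probe set at 16 h. The other probe sets were fitted with all 54613 non-control probe sets and adjusted over them, which is stricter: in that fit the brightest probe sets kept 4 of 6 calls at 16 h, losing KLF3 (adjusted p = 0.0649) and KLF10 (0.0936), and 3 of 4 at 48 h, losing KLF6 (0.0955).

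KLF4 had 1 other probe set, with 8.67 and 8.66 in vehicle cells, 9.35 and 9.21 at 4 h, 9.50 and 8.80 at 16 h, and 9.80 and 9.84 at 48 h. It rose at 48 h (log2 change 1.16 ± 0.19, adjusted p = 0.0108), and at 16 h it had 0.48 with no call. DHT 16 h replicate 2 was the low array there, and without it, a setting chosen after seeing the data, the log2 change at 16 h was 0.83 ± 0.12 (adjusted p = 0.00700). KLF6 had 4 others. The next brightest, with 10.72 and 10.74 in vehicle cells, 10.69 and 10.57 at 4 h, 9.89 and 10.21 at 16 h, and 10.18 and 10.12 at 48 h, fell at 16 h (-0.68 ± 0.12, adjusted p = 0.0213) and at 48 h (-0.58 ± 0.12, adjusted p = 0.0295). A further KLF6 probe set fell at 48 h (-0.54, adjusted p = 0.0411), and the remaining ones had -0.24 and -0.11.

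For KLF2 the other probe set was dim, between 7.24 and 7.54 on all 8 arrays, with -0.09 at 16 h and -0.02 at 48 h, so the fall rests on 1 probe set of the _s_at kind. KLF3's 3 others had log2 changes of -0.19, -1.42 and -0.33 at 16 h and -0.17, -0.54 and -0.27 at 48 h, with no call. The value of -1.42 ± 0.52 came from DHT 16 h replicate 2, which read 6.69, against 8.78 for DHT 16 h replicate 1 and 9.46 and 8.85 for vehicle, and without that array it was -0.37 ± 0.21. KLF11's other probe set had 0.20 at 16 h with no call, KLF10 had no other, and the other probe sets of KLF5, KLF7, KLF12 and KLF13 were not called at any of the 3 times.

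**Figure D3:**
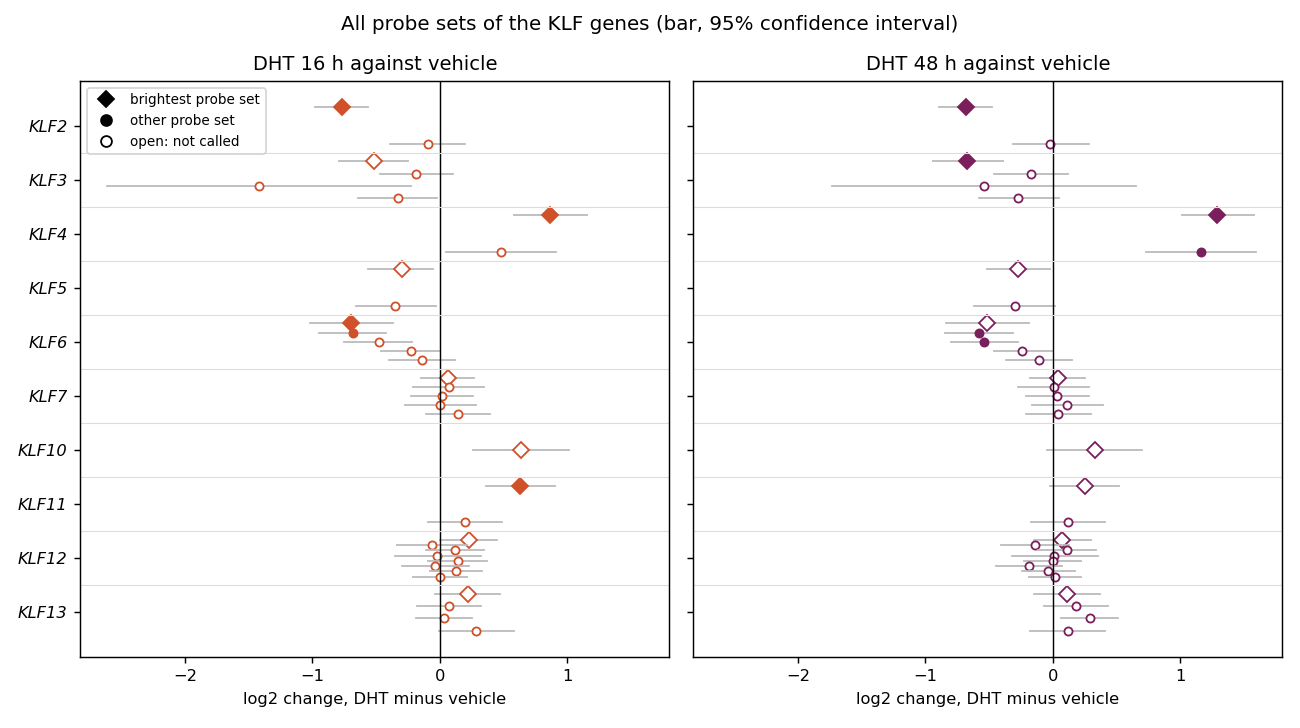
Log2 change of all 35 probe sets of the KLF genes at 16 h (left) and 48 h (right), DHT minus vehicle, from the fit over all probe sets, with 95% confidence intervals as grey bars. Diamonds are the brightest probe set of each gene, circles the others, and open symbols are not called. The KLF4 probe sets lie right of 0 and those of KLF3 and KLF6 left of 0 at both times, while for KLF2 the brightest lies at -0.77 at 16 h and the dim one at -0.09.

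The genes whose profile over the 8 arrays came closest to a member, each taken relative to its vehicle mean, were found for the 3 members with the smallest F test p. For KLF2 these were STOM, ERRFI1 and EPAS1, with a root mean square difference of 0.072, 0.084 and 0.093 log2 units over 8 arrays, beside a root mean square of 0.517 for KLF2 itself. As follows from the search, they were near 0 at 4 h and low later, like KLF2. STOM had log2 changes of 0.06, -0.67 and -0.62 at 4 h, 16 h and 48 h. For KLF4 they were TOX3 (0.138), PRR15L (0.175) and SYBU (0.184), beside 0.857 for KLF4, and TOX3 had log2 changes of 0.74, 1.07 and 1.15. For KLF3 they were RAP2C (0.094), LMTK3 (0.095) and FEM1C (0.102), beside 0.536 for KLF3, and RAP2C had -0.47, -0.46 and -0.64. The closest genes were searched among 2667, 847 and 3538 genes for KLF2, KLF4 and KLF3, those with a largest change at least 0.5 times that of the member.

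The rest of the family moved little, in part at low signal. It was set apart from the 10 genes with earlier results of these data known, so the counts cannot test whether the 2 sets differ. Of 7 other KLF genes (KLF1, KLF8, KLF9, KLF14, KLF15, KLF16 and KLF17) limma called 0 at any time, with 0 at an unadjusted p below 0.05, and their median log2 change was 0.04, 0.00 and 0.00 at 4 h, 16 h and 48 h. Mean log2 signals of KLF1 (6.42), KLF8 (5.36), KLF9 (8.04), KLF14 (8.14) and KLF17 (6.46) lay below the median of all genes, 8.44. Those of KLF15 (9.21) and KLF16 (9.64) lay above it. For the dim genes a flat signal does not show that a response was absent. Of 8 SP genes, whose products bind the same elements, 1 rose at 16 h and 1 fell at 48 h, 1 of 8 each time, near the 6.85% and 9.51% of all genes called at those times. SP6, an epithelial factor, had 10.35 and 10.49 in vehicle cells, 10.39 and 10.40 at 4 h, 10.78 and 10.91 at 16 h, and 10.67 and 10.78 at 48 h, and rose at 16 h (log2 change 0.43 ± 0.10, adjusted p = 0.0226). SP2 had 9.10 and 8.72 in vehicle cells, 8.62 and 8.63 at 4 h, 8.28 and 8.65 at 16 h, and 7.71 and 8.23 at 48 h, and fell at 48 h (-0.94 ± 0.18, adjusted p = 0.00609). The call of SP6 was lost without vehicle replicate 1 or DHT 16 h replicate 2, and that of SP2 without vehicle replicate 1 or DHT 48 h replicate 1 (adjusted p up to 0.192 and 0.0830). Without vehicle replicate 2, SP4 (-0.57) was called lower at 48 h beside SP2.

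Partners and regulators of KLF proteins were mostly not called. Of 13, 1 rose and 1 fell at 16 h, and 1 rose and 2 fell at 48 h, where 2.55% of all genes rose and 4.30% fell at 16 h and 3.13% rose and 6.38% fell at 48 h. HIPK2, a nuclear kinase reported to act on KLF3, had 9.46 and 9.16 in vehicle cells, 9.37 and 9.41 at 4 h, 10.02 and 9.96 at 16 h, and 10.16 and 10.46 at 48 h. It rose at 16 h (log2 change 0.68 ± 0.12, limma adjusted p = 0.00698) and at 48 h (1.0 ± 0.12, adjusted p = 0.000385). FBXW7, the ubiquitin ligase subunit that marks KLF2 and KLF5 for degradation, fell at 16 h (-0.56 ± 0.12, adjusted p = 0.0152) and had -0.55 at 4 h and -0.06 at 48 h with no call. The acetyltransferase CREBBP (-0.47 ± 0.10, adjusted p = 0.0115) and the corepressor CTBP2 (-0.40 ± 0.11, adjusted p = 0.0371) fell at 48 h. Leaving out vehicle replicate 1 ended the calls of FBXW7, CREBBP and CTBP2, which left 1 call at 16 h and 1 at 48 h, and leaving out DHT 48 h replicate 1 ended those of CREBBP and CTBP2. Vehicle replicate 2 ended those of HIPK2 at 16 h, FBXW7 and CTBP2 (0 calls left at 16 h), DHT 16 h replicate 2 that of FBXW7, and DHT 48 h replicate 2 and either 4 h array that of CTBP2. Without either 16 h array FBXW7 was called lower at 4 h (-0.55, adjusted p = 0.0435) and the acetyltransferase gene KAT2B at 48 h (-0.40, adjusted p = 0.0396), and without DHT 16 h replicate 2 KAT2B was called lower at 16 h too (-0.53, adjusted p = 0.0470). MAP2K5, MAPK7, MEF2A, MEF2C and MEF2D belong to the cascade known to induce KLF2 and KLF4 in endothelial cells. Of these 5, limma called 0 at each time, with 0, 0 and 1 at an unadjusted p below 0.05, the last being MEF2C at 48 h (-0.38, adjusted p = 0.0514).

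Because KLF10 and KLF11 are known as early TGF-beta genes, 15 genes of that pathway were read beside them. At 16 h 0 rose, 7 fell and 8 were not called, and at 48 h 0 rose, 8 fell and 7 were not called, with a median log2 change of -0.34 and -0.46, beside 0.024 and 0.012 over all genes. Of all genes 4.30% fell at 16 h and 6.38% at 48 h. The ligand TGFB2 had 8.69 and 8.35 in vehicle cells, 7.96 and 8.16 at 4 h, 7.15 and 7.35 at 16 h, and 7.32 and 7.35 at 48 h. It fell 2.42-fold at 16 h (log2 change -1.27 ± 0.13, limma adjusted p = 0.000146) and by -1.19 ± 0.13 at 48 h (adjusted p = 0.000135). The receptor TGFBR1 fell at 16 h (-0.68, adjusted p = 0.0113) and 48 h (-0.92, adjusted p = 0.00127). ID1 and ID2, inhibitors of basic helix-loop-helix factors that respond chiefly to BMP signals, had log2 changes of -0.46 and -0.62 at 16 h (adjusted p = 0.0152 and 0.00180) and of -0.93 and -1.06 at 48 h (adjusted p = 0.000117 and 2.13e-05), all called. The other called members, named after their values were seen, were SMAD4, TGIF1 and ID3 at both times and SMAD7 at 48 h. TGIF1 and SMAD7 are known as inhibitors of the pathway, and SMAD4 carries its signal. The count that fell at 16 h was 3 without vehicle replicate 1 and otherwise 5 to 7 without 1 array, and at 48 h it was 6 to 9. Without DHT 16 h replicate 1, SKIL (0.61) and PMEPA1 (0.40) were called higher and SMAD2 (-0.59) lower at 16 h, with the array that stood apart as the only one of its group. Without either 16 h array SKI (-0.46) was called lower at 48 h. Calls lost without 1 array were, at 16 h, TGFBR1 (without vehicle replicate 1 or DHT 16 h replicate 1), SMAD4 (without vehicle replicate 1), ID1 (without either vehicle array or DHT 16 h replicate 2) and ID3 (without any vehicle, 16 h or 48 h array), and at 48 h SMAD4 (without vehicle replicate 1 or DHT 48 h replicate 1) and TGIF1 (without any vehicle, 4 h or 48 h array).

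Reported KLF targets were mixed as well, and most have other regulators too. Of 20, 1 rose and 5 fell at 16 h and 1 rose and 6 fell at 48 h, with a median log2 change of -0.04 at both times, where 6.85% of all genes were called at 16 h and 9.51% at 48 h. LGALS3, the galectin gene that KLF3 represses in mouse, had 12.61 and 12.62 in vehicle cells, 12.67 and 12.63 at 4 h, 13.05 and 13.19 at 16 h, and 13.87 and 13.69 at 48 h. It rose 2.24-fold at 48 h (log2 change 1.16 ± 0.10, limma adjusted p = 2.13e-05) and by 0.50 at 16 h (adjusted p = 0.0104). The growth factor gene PDGFA, a KLF5 target in vascular muscle, fell at 48 h (-0.95 ± 0.14, adjusted p = 0.000983). The cell cycle inhibitor gene CDKN1B fell at 16 h (-0.53) and 48 h (-0.77), and the mitotic cyclin gene CCNB1, which KLF4 is known to repress, at 16 h (-0.62) and 48 h (-0.75). The other called targets, named after their values were seen, all fell. CDKN1A and CDH1, which KLF4 is known to activate, had log2 changes of -0.64 and -0.53 at 16 h and -0.61 and -0.44 at 48 h. At both times KLF4 was called higher and KLF2, KLF3 and KLF6 lower. Whether any KLF factor acted on these targets was not tested. TIMP1 had -0.74 at 16 h (-0.17 at 48 h, no call), and TFAP2A, which KLF12 is known to repress, -0.44 at 48 h, where KLF12 was not called. Without vehicle replicate 1 the count at 16 h was 3, without vehicle replicate 2 it was 2 at 16 h and 4 at 48 h, and without DHT 48 h replicate 1 it was 4 at 48 h. The calls of CDKN1B and LGALS3 at 16 h were lost without either vehicle array. DHT 16 h replicate 1 also ended that of CDKN1B and DHT 16 h replicate 2 that of LGALS3. CDKN1A lost its calls without vehicle replicate 2, and at 48 h also without DHT 48 h replicate 1. TFAP2A lost its call without vehicle replicate 2 or either 48 h array, and CDH1 lost its own at 16 h without either vehicle array or DHT 16 h replicate 1 and at 48 h without any vehicle, 4 h or 48 h array. Without either 16 h array BIRC5 (-0.61) was called lower at 48 h, and without DHT 16 h replicate 1 CCND1 (0.51) higher at 16 h.

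**Figure D4:**
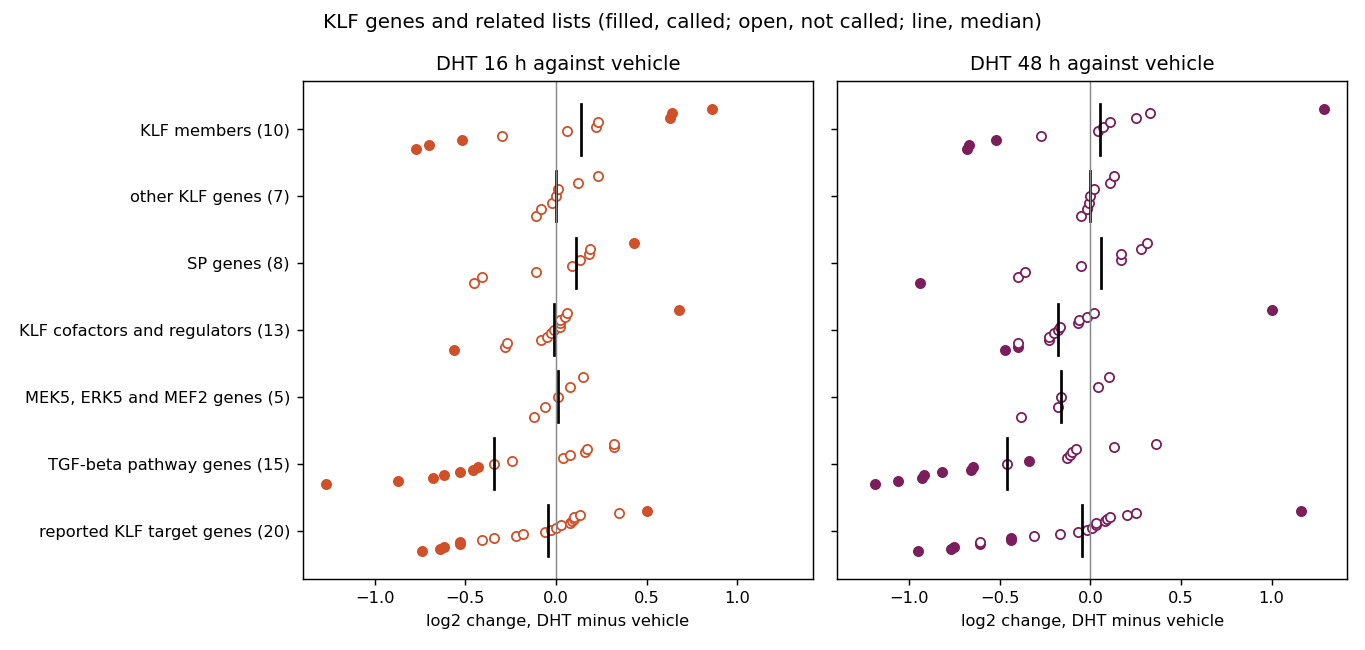
Log2 change, DHT minus vehicle, of each gene of the 10 KLF members and 6 related lists at 16 h (left) and 48 h (right), with filled points called, open points not called and a line at each list's median. The KLF members spread to both sides of 0, from -0.77 to 0.86 at 16 h, the other KLF genes stay close to 0, and the called TGF-beta pathway genes all lie left of 0.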

How the data were processed

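The table deposited by the authors holds log2 signals of 54675 probe sets on 8 expression arrays, between 3.68 and 15.6, normalised by RMA (robust multi-array average, which corrects background, equalises arrays and summarises probes) per the submitters' processing notes. No version or genome build is named for it, and array images were not used here. RMA compresses low signals, so changes of dim probe sets can be understated, and the number of arrays limits all precision. Gene symbols came from the platform annotation: 41091 probe sets had 1 symbol, 1801 several and 11721 none, with 62 controls set aside. Of the 10 KLF genes, 6 were read by an _s_at probe set, which can match several transcripts.

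A model with 4 group means was fitted to all 19775 genes with limma 3.58.1 in R 4.3.3 (4 residual and 7.21 prior degrees of freedom), two-sided, and a second fit ran over all non-control probe sets. An exact permutation test of 2 arrays against 2 cannot go below 0.333 and was not run. Groups of 2 arrays that do not overlap are therefore common where nothing differs. The fit was tried on simulated data with independent normal noise and no array that stood apart. That trial does not cover data in which an array stands apart. The KLF genes and the lists were chosen with earlier results of these data known. The rule for naming took all KLF genes, up to 4 called genes of each related list, and the 3 closest profiles of 3 members. Replicate numbers were not used to pair the arrays in the main fit. Deviations of equal numbers correlated at -0.24 to 0.20, above 0.1 for 2 of 6 pairs of groups. These correlations cannot decide whether equal numbers share a culture day. Alternatives were a replicate block, each array left out, other probe sets, quantile normalisation, equal housekeeping signal, a filter on dim genes, only the groups compared, and a trended robust fit. List genes that were not measured by a probe set with 1 symbol are not analysed here.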

Additional observations from a re-analysis of the deposited data

Results flagged for a closer look

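Between DHT times 3 KLF genes differed by limma's test of the difference itself. No vehicle mean enters these differences, so DHT and time in culture cannot be told apart in them. KLF2 was lower at 16 h than at 4 h by -0.86 ± 0.09 and lower at 48 h than at 4 h by -0.78 ± 0.09 (log2, adjusted p = 0.000341 for each). Its other, dim probe set had -0.09 and -0.02 for the same differences, with no call. KLF10 was higher at 16 h than at 4 h by 0.94 ± 0.15 (adjusted p = 0.00642) and higher at 48 h than at 4 h by 0.63 ± 0.15 (adjusted p = 0.0307). The latter call was lost in the limma fit over all probe sets (adjusted p = 0.108). KLF4 was higher at 48 h than at 4 h by 0.60 ± 0.12 (adjusted p = 0.0107). The calls of KLF4 and KLF10 that were lost without 1 array are named above.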

How the results depend on the processing

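No called change of a KLF gene reversed under any alternative. Of the counts of called KLF genes, 0 of 10 at 4 h became 2 with quantile normalisation, without dim genes and with the trended robust fit (KLF3 and KLF4 in each), 1 with equal housekeeping signal (KLF4), and 0 to 1 without 1 array. At 16 h the count of 6 was 3 of 8 with probe sets outside the _s_at, _x_at and _a_at kinds and 3 to 6 without 1 array, and at 48 h the count of 4 was 2 of 8 with those probe sets and 2 to 4 without 1 array. Between 16 h and 4 h the count of 2 was 0 with those probe sets, 4 without dim genes and with the trended robust fit, and 1 to 3 without 1 array. Between 48 h and 4 h the count of 3 was 0 with those probe sets and 1 to 3 without 1 array. The F test's 6 became 3 over all probe sets, 3 with those probe sets and 3 to 6 without 1 array. KLF10 has no such probe set and neither has KLF4, which gives 8 genes. The cause of the other differences was not tested. With a replicate block the counts were 0, 6 and 4 at 4 h, 16 h and 48 h, and the block changed no call count. The fit on only the groups compared gives no F test. With 2 arrays in a group, a KLF change that missed the threshold is not shown to be absent.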
